A study of Mus musculus with 2 samples.

Results

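The genes described here are 30 genes of the DNA damage response and of DNA repair, taken from a list of names and matched by Entrez ID in the deposited tables, which hold 24532 gene IDs. All 30 were matched, and all 30 had at least 1 TPM (a level scaled per transcript length and per library) in at least 1 library, as had 12029 genes in all. RNA of sorted CD69+ DP thymocytes, the CD4 and CD8 double-positive T cell precursors that have been signalled through their T cell receptor, was sequenced in 2 libraries from C57BL/6 mice aged 6 weeks. The library labelled KO came from mice with floxed Nsrp1 alleles and CD4Cre (NSRP1f/fCD4Cre), a Cre that acts from the DP stage itself. The library labelled WT came from mice with the same floxed alleles and no Cre (NSRP1f/f). Nsrp1 encodes NSrp70, a splicing regulator of nuclear speckles, and the comparison asks what its loss changes in the RNA of these cells. The number of mice behind each library is not given in the labels. Each genotype label has 1 library, so no difference could be checked against replicates, no test was made, and every 95% interval below covers counting error only.

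Cells answer broken or stalled DNA with kinases that sense the lesion, mediators that gather at it, and enzymes that cut back, copy or rejoin the strands. Homologous recombination copies the sister chromatid and works in cells that replicate their DNA, and many of its genes are known for higher RNA in S and G2 phase. Thymocytes also break their own DNA, since the RAG recombinase cuts the receptor gene segments in DP cells, and the ATM kinase and the MRE11 complex are known to act at those breaks. Other enzymes, among them PARP1 and the excision repair factors, work in all phases of the cell cycle.

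Annotated exons held 5076 megabases of read coverage under the KO label and 4199 megabases under the WT label. Nsrp1 RNA stood at 29.6 TPM (27.9 to 31.5) under the KO label and 29.7 TPM (27.7 to 31.9) under the WT label. The deletion was thus not visible in the level of its own RNA, and each direction below is one between labelled libraries. The 8 markers of DP thymocytes summed to 5670 TPM in the library labelled KO and 5432 TPM in the library labelled WT. Markers of other cells summed to 81.7 TPM under the KO label and 91.8 TPM under the WT label for double-negative thymocytes (5 genes), 61.0 TPM (KO) and 53.0 TPM (WT) for B cells (4 genes), 51.8 TPM (KO) and 67.0 TPM (WT) for macrophages (4 genes), and 262.0 TPM (KO) and 361 TPM (WT) for dendritic cells (4 genes). The sums were 34.9 TPM (KO) and 36.7 TPM (WT) for granulocytes (2 genes), 9.51 TPM (KO) and 7.36 TPM (WT) for NK cells (2 genes), and 1.17 TPM (KO) and 0.846 TPM (WT) for erythroid cells (4 genes). Thymic epithelium (4 genes) summed to 8.35 TPM under the KO label and 6.87 TPM under the WT label, with Foxn1, Krt5 and Krt8 listed at 0 in both. Xist was at 76.3 TPM in the library labelled KO and 202 TPM in the library labelled WT, and the Y-linked gene Ddx3y at 71.2 TPM under the KO label and 31.1 TPM under the WT label. Each library thus held both Xist and Y-linked RNA, in different proportions. The sex make-up of the libraries and their genotype cannot be told apart. RNA of cycling cells differed most: all 18 genes of that list were higher under the KO label, with a summed level of 1893 TPM there against 1281 TPM under the WT label and a median log2 ratio of 0.71. Their part in the values of the repair genes was not tested, and in bulk RNA more cycling cells and more RNA per cell cannot be told apart.

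None of the 30 genes differed 2-fold between the libraries. On the scale log2((TPM + 1) in KO / (TPM + 1) in WT), 0 of 30 reached 1 in size, against 2.03% of all 12029 genes (0.657% higher and 1.37% lower). Of the 27 with at least 5 TPM in a library 0 did, against 1.3% of such genes. The 30 values ran from -0.34 for Trp53bp1 to 0.58 for Exo1, with a median of 0.01, against -0.07 over all genes. At a log2 ratio of 0.5 or more, 3 of 30 genes were higher under the KO label (Exo1, Fancd2 and Chek1), where the share of all genes was 3.37%. At that size 0 of 30 were lower, where the share of all genes was 6.42%. Above zero were 15 of 30, against 38.5% of all genes, and below zero 15 of 30, against 61.5%. The counting interval of the ratio lay above 1 for 7 of 30 genes, against 16.3% of all genes, and below 1 for 8 of 30, against 35%. Exo1, Fancd2, Chek1 and Rad54l thus stood at the upper end, and Trp53bp1, Mdc1, Atr, Atm and Rif1, all with transcripts over 7000 bases, at the lower end.

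**Figure D1:**
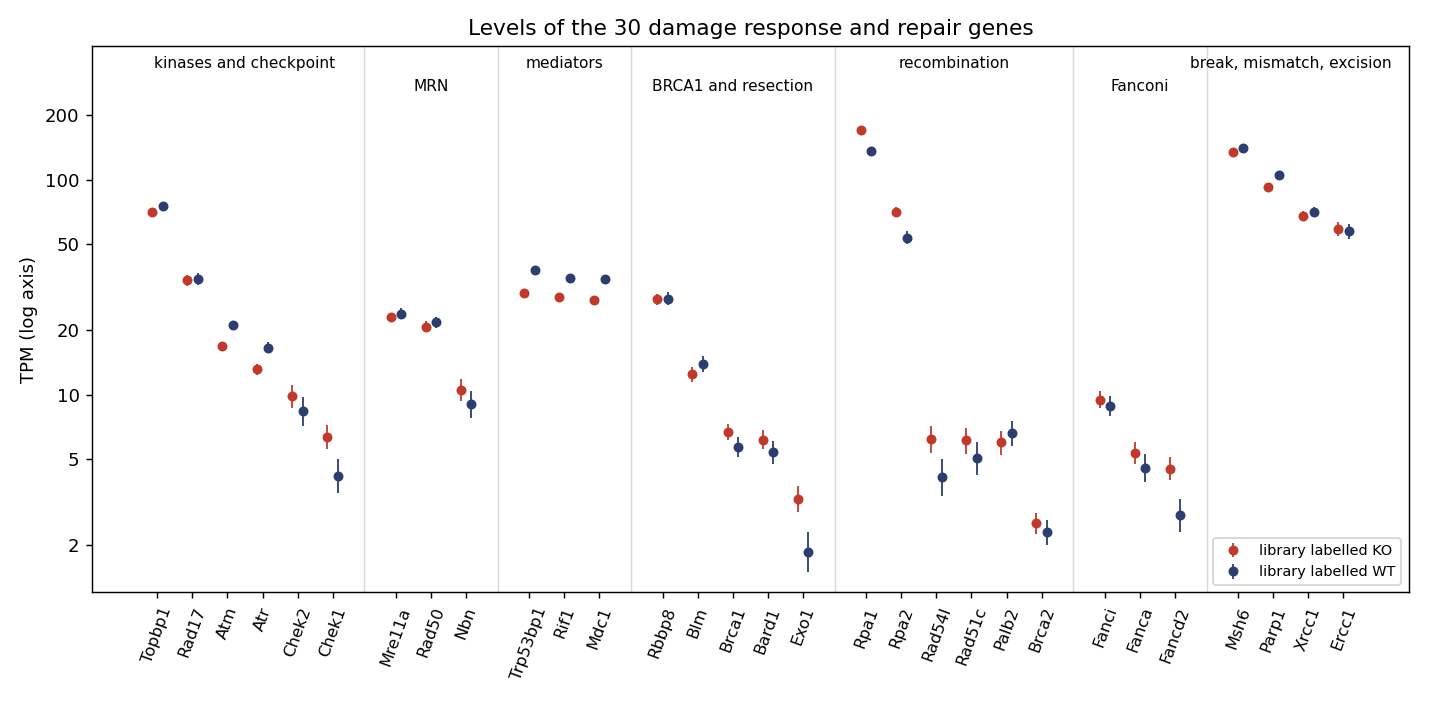
Level of each of the 30 genes in TPM (log axis) under the KO label and the WT label, grouped by role; points are single libraries and bars are 95% exact Poisson intervals of the estimated read pairs. Levels span from 2.53 TPM for Brca2 to 170.4 TPM for Rpa1 in the library labelled KO, and the paired points lie close together in every role group.

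The order of levels was nearly the same in both libraries. The 3 most abundant genes in the library labelled KO were Rpa1, Msh6 and Parp1, at 170.4, 135 and 92.4 TPM. In the library labelled WT Msh6 came first at 141 TPM, followed by Rpa1 at 137 TPM, and their intervals overlap there (137 to 145 and 132 to 141 TPM). At the low end stood Brca2, Exo1 and Fancd2, at 2.53, 3.27 and 4.53 TPM in the library labelled KO. In the library labelled WT the lowest was Exo1 at 1.85 TPM, then Brca2 at 2.29 TPM and Fancd2 at 2.75 TPM, and the intervals of neighbours in this order overlap (1.49 to 2.28, 1.997 to 2.61 and 2.29 to 3.28 TPM). Between 5 and 7 TPM in the library labelled KO lay Fanca, Palb2, Rad51c, Bard1, Rad54l, Chek1 and Brca1, whose levels are not separated by counting error from those of their neighbours.

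The damage kinases and checkpoint genes went both ways. Atm, the kinase activated at double-strand breaks, was at 16.9 TPM (16.2 to 17.6) under the KO label and 21.2 TPM (20.3 to 22.1) under the WT label, a ratio of 0.797 (0.751 to 0.846). Atr, the kinase activated by RPA-coated single strands, was at 13.1 TPM under the KO label and 16.5 TPM under the WT label, a ratio of 0.794 (0.731 to 0.862). Both apical kinases were thus lower in the library labelled KO, by nearly the same ratio. Rad17, which loads the checkpoint clamp, was at 34.1 TPM under the KO label and 34.6 TPM under the WT label. Topbp1, the activator of ATR, was at 70.9 TPM under the KO label and 75.6 TPM under the WT label, a ratio of 0.938 (0.896 to 0.982). The effector kinases pointed the other way. Chek1, which acts below ATR and holds back mitosis (gene ID 12649, mm10 chromosome 9, minus strand, 36708482 to 36726658), was at 6.38 TPM (5.601 to 7.24) under the KO label and 4.18 TPM (3.48 to 4.99) under the WT label, a ratio of 1.53 (1.22 to 1.91). Chek2, which acts below ATM, was at 9.81 TPM under the KO label and 8.37 TPM under the WT label, and its interval of the ratio, 0.957 to 1.44, holds 1. Over the 6 genes the median log2 ratio was -0.05.

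The MRN complex tethers and trims broken ends, and its subunits were near level. Mre11a, the nuclease subunit, was at 22.9 TPM in the library labelled KO and 23.8 TPM in the library labelled WT. Rad50, the ATPase subunit, was at 20.7 TPM under the KO label and 21.7 TPM under the WT label. Nbn, the subunit that recruits ATM, was at 10.6 TPM under the KO label and 9.05 TPM under the WT label. The intervals of all 3 ratios hold 1, the widest being that of Nbn at 0.97 to 1.41.

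The mediators that gather on chromatin around a break were lower in the library labelled KO, all 3 by a similar size. Mdc1, which binds the phosphorylated histone H2AX, was at 27.5 TPM (26.4 to 28.7) under the KO label and 34.7 TPM (33.3 to 36.2) under the WT label. Trp53bp1, whose protein shields ends from resection, was at 29.7 TPM (28.7 to 30.8) under the KO label and 37.8 TPM (36.5 to 39.2) under the WT label. Rif1, an effector of that protein, was at 28.3 TPM (27.3 to 29.4) under the KO label and 35.03 TPM (33.7 to 36.4) under the WT label. Their ratios were 0.793, 0.785 and 0.809 in that order, so the libraries do not overlap within counting error for any of them. The transcripts of these genes are over 7000 bases long, and the median of all genes in their bin of transcript length (the longest of 10 bins of equal size) was also low, at -0.28 on the log2 scale, against -0.32 for the 3 mediators. A share of 20.8% of the 50-base words of Trp53bp1 also occurs in transcripts of other genes, chiefly Tubgcp4, which overlaps it on the opposite strand, so its level is uncertain. Tubgcp4 was at 39.2 TPM in the library labelled KO and 44.8 TPM in the library labelled WT.

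In the BRCA1 complex and the resection enzymes the direction followed no single rule. Exo1, the exonuclease of long-range resection (gene ID 26909, mm10 chromosome 1, plus strand, 175880778 to 175911396), was at 3.27 TPM (2.83 to 3.75) under the KO label and 1.85 TPM (1.49 to 2.28) under the WT label. Its ratio of 1.76 (1.37 to 2.29) was the highest of the 30 genes, and it rests on 201 estimated read pairs under the KO label and 88.3 under the WT label. Brca1, the ubiquitin ligase that promotes resection, was at 6.72 TPM under the KO label and 5.73 TPM under the WT label, a ratio of 1.17 (1.02 to 1.35). Its partner Bard1 was at 6.17 TPM under the KO label and 5.39 TPM under the WT label, with an interval of 0.973 to 1.35. Rbbp8, whose product CtIP starts resection, was at 27.8 TPM under the KO label and 28.0 TPM under the WT label. Blm, the helicase of the Bloom complex, was at 12.4 TPM under the KO label and 13.9 TPM under the WT label, a ratio of 0.893 (0.796 to 1.003). Exo1 thus stood apart from the other 4 genes, whose ratios lay between 0.893 and 1.17.

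Of the 6 recombination genes, 5 were above zero, against 38.5% of all genes. Without terminal exons, where Rpa1 turns, 4 of 6 were above zero, against 31.7% of 11260 genes. The counting intervals of Rad51c and Brca2, among the 5, hold 1. Rad54l, a translocase that helps strands pair (gene ID 19366, mm10 chromosome 4, minus strand, 116096955 to 116123690), was at 6.20 TPM (5.38 to 7.11) under the KO label and 4.13 TPM (3.39 to 4.998) under the WT label, a ratio of 1.4998 (1.18 to 1.91). Its terminal exon departed from this, at 6.27 TPM-equivalents (exon depth on the TPM scale) under the KO label and 6.46 under the WT label, while its other exons stood at 5.90 under the KO label and 3.61 under the WT label. Up to 155 bases of an exon of Rad54l overlap Lrrc41 on the opposite strand, which was at 38.4 TPM in the library labelled KO and 36.3 TPM in the library labelled WT. Rad51c, a gene of strand exchange, was at 6.12 TPM under the KO label and 5.07 TPM under the WT label, with an interval of 0.964 to 1.52. Brca2, whose product readies resected strands for exchange, was at 2.53 TPM under the KO label and 2.29 TPM under the WT label, with an interval of 0.926 to 1.32. Palb2, which joins BRCA2 to BRCA1, was the exception at 5.99 TPM under the KO label and 6.63 TPM under the WT label, with an interval of 0.749 to 1.09.

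The single-strand binding protein RPA coats resected DNA, and Rpa1 and Rpa2 were not alike in where along the transcript the libraries differed. Rpa2, the middle subunit (gene ID 19891, mm10 chromosome 4, plus strand, 132768360 to 132778746), was at 70.8 TPM (67.2 to 74.6) under the KO label and 53.8 TPM (50.2 to 57.6) under the WT label, a ratio of 1.32 (1.21 to 1.44). All 9 exons of Rpa2 were deeper in the library labelled KO, with log2 ratios between 0.20 and 0.71. Rpa1, the large subunit (gene ID 68275, mm10 chromosome 11, minus strand, 75300259 to 75348383), was at 170.4 TPM (166 to 175) under the KO label and 137 TPM (132 to 141) under the WT label, a ratio of 1.25 (1.196 to 1.301). This ratio came from the terminal exon, exon 17 of NM_026653 (chromosome 11, 75300259 to 75301403 in mm10, 1145 bases). That exon stood at 182 TPM-equivalents in the library labelled KO and 25.3 in the library labelled WT, a ratio of 7.19 (6.31 to 8.23). Each of the other 16 exons was less deep in the library labelled KO, with log2 ratios between -0.65 and -0.17. Without exon 17 Rpa1 stood at 163 TPM-equivalents under the KO label and 204 under the WT label, a ratio of 0.801 (0.763 to 0.840). No 50-base word of Rpa1 occurs in a transcript of another gene. Rpa3, the small subunit and not one of the 30 genes, was at 80.1 TPM (73.7 to 87.0) under the KO label and 56.6 TPM (50.5 to 63.3) under the WT label, a ratio of 1.42 (1.23 to 1.63).

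**Figure D2:**
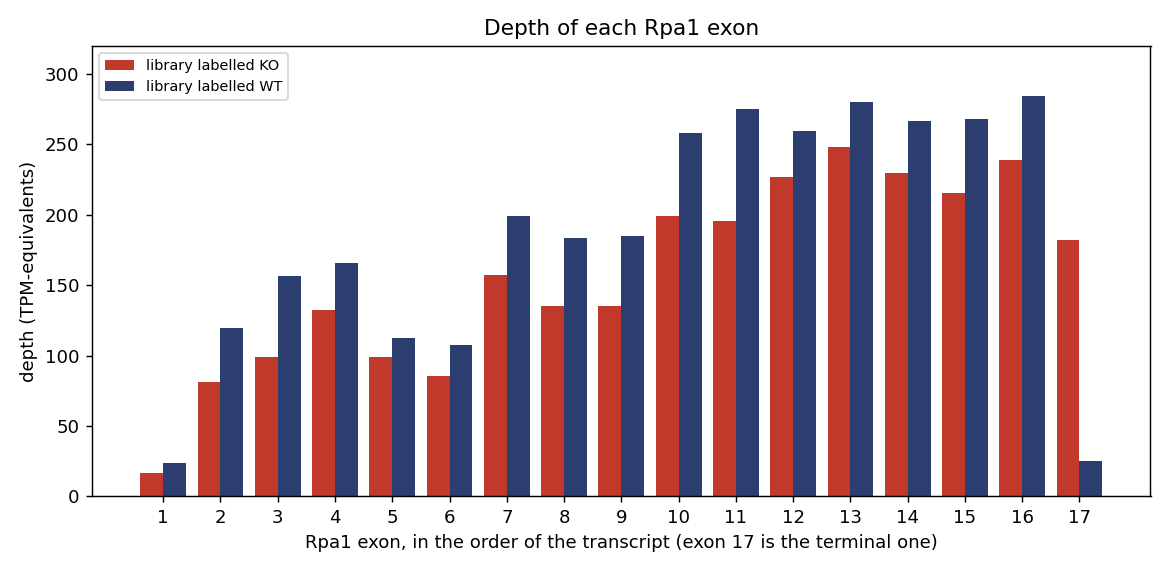
Depth of each of the 17 exons of Rpa1 in TPM-equivalents under the KO label and the WT label; bars are single libraries. The bars of exons 1 to 16 are lower under the KO label, and exon 17 stands at 182 under the KO label and 25.3 under the WT label.

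Rpa1 stood alone among the repair genes in this respect. Of the 20 members with at least 100 read pairs over both libraries in the terminal exon and in the rest, 1 (Rpa1) had an end exon raised 2-fold or more over its other exons under the KO label, against 0.610% of 8365 genes, and 0 had one lowered as much. Of 692 exons of the 30 genes, 364 had at least 20 read pairs in a library, and 2 of these lay 1 or more on the log2 scale from the median exon of their gene. The other one was exon 56 of Atm, at 23.2 TPM-equivalents in the library labelled KO and 15.9 in the library labelled WT, with a ratio of 1.46 and an interval (0.822 to 2.69) that holds 1. This exon rule was not applied to other genes, so no share of all exons can be set beside the 2 of 364. Each of the 692 exons had read coverage in both libraries.

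The Fanconi genes, which act at DNA crosslinks and stalled forks, were above zero in all 3 cases, against 38.5% of all genes, and the counting intervals of Fanci and Fanca hold 1. With the transcript cut into 3 equal segments, Fanci stood at -0.07 in the 5' segment and -0.09 in the middle (log2 ratio), and Fanca at -0.07 in the 5' segment. Fancd2 (gene ID 211651, mm10 chromosome 6, plus strand, 113531682 to 113597020), the subunit whose ubiquitination marks the lesion, was at 4.53 TPM (3.99 to 5.12) under the KO label and 2.75 TPM (2.29 to 3.28) under the WT label. Its ratio was 1.65 (1.33 to 2.06), and 1.64 (1.297 to 2.10) without the terminal exon. Fanci, its partner, was at 9.48 TPM under the KO label and 8.86 TPM under the WT label, with an interval of 0.931 to 1.23. Fanca, of the core complex that ubiquitinates that pair, was at 5.36 TPM under the KO label and 4.56 TPM under the WT label, with an interval of 0.970 to 1.43. Fancd2 thus lay apart from Fanci. Both Fanci and Fanca are uncertain, since 11.6% of the 50-base words of Fanci occur in Polg (125 TPM in the library labelled KO and 154 TPM in the library labelled WT) or other genes, and 8.27% of those of Fanca chiefly in Zfp276.

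The genes of strand-break, mismatch and excision repair were close to level and among the most abundant. Ercc1, a subunit of a nuclease of excision repair, was at 59.1 TPM in the library labelled KO and 57.6 TPM in the library labelled WT. Xrcc1, the scaffold of single-strand break repair, was at 68.2 TPM under the KO label and 70.6 TPM under the WT label. Msh6, whose product recognises mismatches, was at 135 TPM under the KO label and 141 TPM under the WT label, a ratio of 0.954 (0.920 to 0.990). Parp1, the sensor of strand breaks that makes poly(ADP-ribose), was at 92.4 TPM (89.5 to 95.3) under the KO label and 106 TPM (102 to 109) under the WT label, a ratio of 0.875 (0.836 to 0.916). Parp1 was the lowest of these 4 relative to the library labelled WT. Its log2 ratio was -0.19, where the median of all genes in its bin of transcript length was -0.15. By segment it stood at -0.39 (5'), -0.26 (middle) and 0.09 (3'), so the direction did not hold along the transcript.

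Level and transcript length went along with the ratio. Split at a mean of 10 TPM, a line drawn after the values were seen, 12 of the 13 genes with lower levels were above zero with a median log2 ratio of 0.20, while over all 3434 genes with such levels 36.5% were above zero with a median of -0.11. Of the 17 genes with higher levels 3 were above zero, with a median of -0.07, while over all 8595 such genes 39.4% were above zero with a median of -0.06. By length, the 6 genes with transcripts over 7000 bases had a median of -0.31, against -0.32 over the 671 such genes, and Brca2 was the one of them above zero, at 0.10. The 17 genes between 3000 and 7000 bases had a median of 0.09, against -0.15 over 4368 genes. The 7 genes of up to 3000 bases had a median of 0.20, against 0.01 over 6990 genes. Set beside the median of all genes in the same length bin, 22 of 30 genes were above it, against 50% of all genes, and the median distance was 0.17. Thus Atm, Atr, Mdc1, Rif1 and Trp53bp1 stood where other genes of their length stood, while Brca1, Bard1, Exo1 and Fancd2 stood higher than the median of their length.

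**Figure D3:**
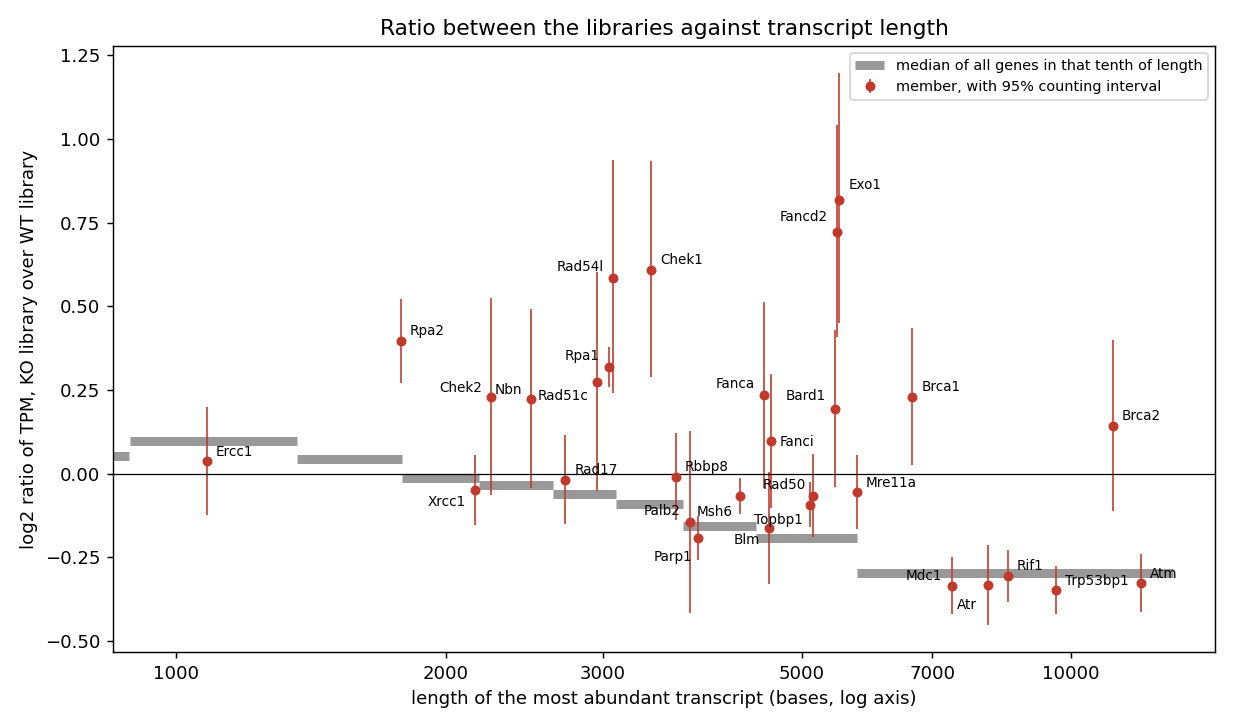
Log2 ratio of TPM (library labelled KO over library labelled WT, no pseudocount) of each gene against the length of its most abundant transcript in bases (log axis); bars are 95% counting intervals and grey bands are medians of all genes in each of 10 length bins. The grey bands descend with length, 5 genes over 7000 bases lie close to their band, and Exo1, Fancd2, Chek1, Rad54l and Rpa2 lie above theirs.

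The long genes were lowest in the 5' part of the transcript, less low in the middle and nearest to level at the 3' end. For this each transcript was cut into 3 equal segments. In its 5' segment Atm stood at 7.32 TPM-equivalents in the library labelled KO and 12.9 in the library labelled WT (log2 ratio -0.74). The middle segment had a log2 ratio of -0.49. In the 3' segment it stood at 29.7 under the KO label and 31.0 under the WT label (-0.06). Atr went likewise, with -0.64 in the 5' segment, -0.57 in the middle and -0.05 in the 3' segment. Mdc1 had -0.65, -0.46 and -0.03 in the same order, Rif1 had -0.66, -0.33 and -0.07, and Trp53bp1 had -0.45, -0.26 and -0.15. The same gradient was seen over 492 genes with transcripts over 7000 bases, whose medians were -0.61 in the 5' segment, -0.34 in the middle and -0.15 in the 3' segment. Its direction was not particular to long genes. The 3' segment stood above the 5' segment in 18 of the 22 genes read in segments, against 81.1% of 7613 genes. Between 3000 and 7000 bases it did so in 11 of 12, against 87.7% of 2908 genes. Chek1 and Rpa2 had no such gradient, with 0.59 and 0.45 for Chek1 and 0.41 and 0.40 for Rpa2 in the 5' and 3' segments. The terminal exon can be read the same way. Over the 8365 genes with at least 100 read pairs in it and in the rest, it stood 0.19 higher than the other exons on the log2 scale (median). Without terminal exons 14 of 30 genes were above zero, against 31.7% of 11260 genes, with a median of -0.04 against -0.14. There 0 of 30 reached 1 in size, against 1.79%, and the 4 highest were again low-level genes, Rad54l at 0.58, Fancd2 at 0.56, Chek1 at 0.55 and Exo1 at 0.54. Whether coverage along the transcript accounts for the lower values of Atm, Atr, Mdc1, Rif1, Trp53bp1 and Parp1 was not tested.

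**Figure D4:**
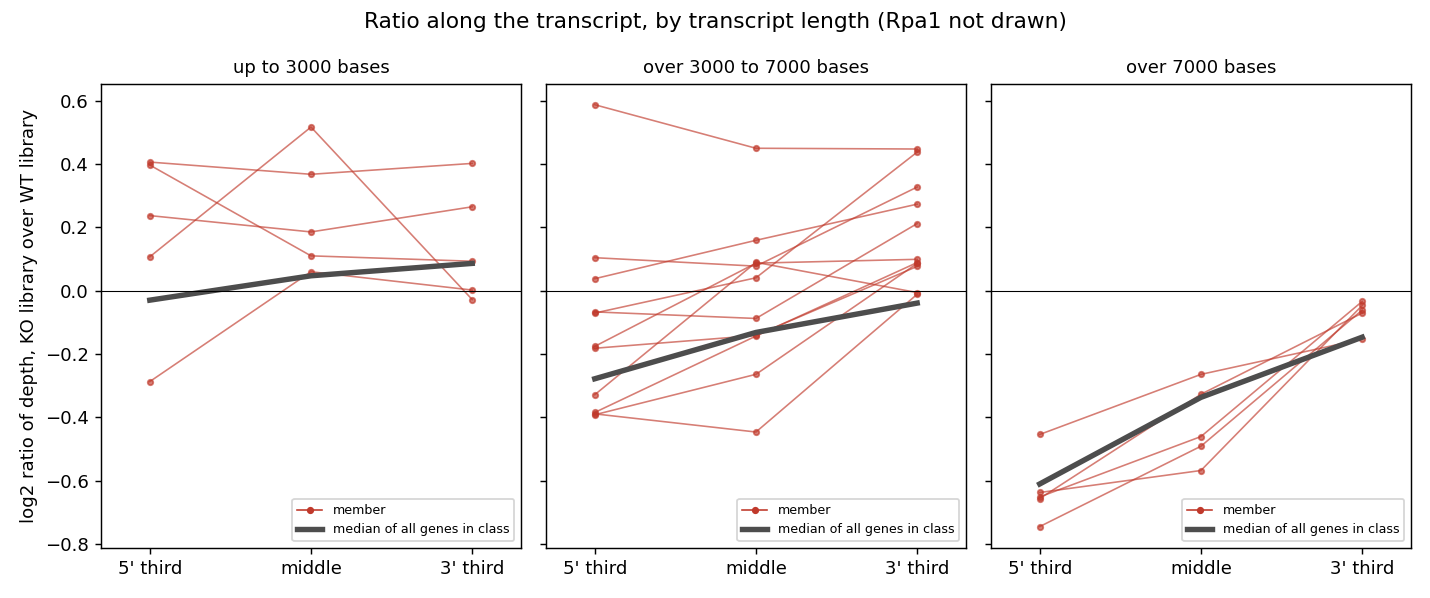
Log2 ratio of depth (library labelled KO over library labelled WT) in the 5' segment, the middle and the 3' segment of the most abundant transcript, for 22 of the genes less Rpa1, which is not drawn (thin lines) and the median of all genes in the same length class (thick line). In the class over 7000 bases all 5 thin lines climb towards zero, from values between -0.74 and -0.45 in the 5' segment.

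Transcript composition was near equal for all but 1 of the genes that could be read. Of the 30 genes, 18 have a single annotated transcript and 12 have several, and 7 of the 12 had at least 10 TPM in both libraries. Among these 7, 1 had a transcript whose share of its gene differed by 25 percentage points or more, against 6.63% of 3032 genes; that gene also passed 15 points (16.1% of genes) and 35 points (3.46%). It was Rbbp8, where NM_001081223 held 91.9% of the gene's TPM in the library labelled KO and 56.5% in the library labelled WT. The non-coding transcript NR_045526 held 6.93% under the KO label and 41.4% under the WT label. The one exon that sets them apart is exon 12 of NM_001081223 (127 bases), which NR_045526 lacks. The depth of that exon did not follow the split. It stood at 35.9 TPM-equivalents in the library labelled KO and 33.3 in the library labelled WT, which is 95.6% (KO) and 98.2% (WT) of the mean of exons 11 and 13. The deposited shares of Rbbp8 are therefore not matched by a difference in reads over exon 12. In the other 6 genes (Blm, Ercc1, Mre11a, Rad17, Rpa1 and Trp53bp1) the largest difference was that of NM_001283011 of Rad17, with 1.70% under the KO label and 12.5% under the WT label.

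The wider repair machinery was near level in its median, like the 30 genes, while its log2 ratios ranged more widely, from -0.72 to 0.83. Of 125 further genes in 8 lists, 123 had at least 1 TPM in a library, 0 of these reached 1 in size on the log2 scale with the pseudocount (2.03% of all genes did), and their median log2 ratio was -0.03, with 56 above zero and 67 below. Without the pseudocount 1 of them, Rad54b, a relative of Rad54l named here after its values were seen, passed 2-fold, at 4.86 TPM (4.17 to 5.64) under the KO label and 2.33 TPM (1.77 to 3.01) under the WT label, a ratio of 2.09 (1.54 to 2.85). The median was 0.03 over 14 Fanconi genes, -0.0083 over 22 genes of base excision and single-strand break repair, and -0.0098 over 14 checkpoint genes. It was -0.02 over 29 recombination genes, -0.04 over 6 mismatch repair genes, -0.07 over 19 nucleotide excision genes, -0.09 over 9 translesion genes and -0.12 over 10 end joining genes. Thus no list stood far from the median of all genes, -0.07.

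The genes at the ends of these lists were as follows. Rad51ap1, whose product promotes strand pairing, was at 16.4 TPM in the library labelled KO and 8.79 TPM in the library labelled WT, the highest log2 ratio of the recombination list at 0.83. Rad52, a strand-annealing protein gene, was its lowest, at 39.6 TPM under the KO label and 48.96 TPM under the WT label. Tipin, of the fork protection complex, led the checkpoint list with 40.2 TPM under the KO label and 23.9 TPM under the WT label (0.73). Rnf8, a ubiquitin ligase recruited by MDC1, was the lowest there with 28.7 TPM under the KO label and 45.4 TPM under the WT label (-0.65). Neil3, a glycosylase, had 18.6 TPM under the KO label and 10.6 TPM under the WT label (0.76), whereas its relative Neil1 had 43.5 TPM under the KO label and 72.3 TPM under the WT label (-0.72). These pairs were at opposite ends of their own lists. Pms2, a mismatch repair gene, was the lowest of its list with 23.5 TPM under the KO label and 29.8 TPM under the WT label (-0.33). Among the Fanconi genes Ube2t, the conjugating enzyme, was highest (17.3 TPM under the KO label and 13.1 TPM under the WT label) and the nuclease gene Fan1 lowest (6.40 TPM under the KO label and 8.28 TPM under the WT label). In end joining Xrcc4, the ligase partner, was highest (33.5 TPM under the KO label and 30.8 TPM under the WT label) and Prkdc, the DNA-PK catalytic subunit, lowest (11.8 TPM under the KO label and 15.03 TPM under the WT label). The mismatch repair, Fanconi, end joining, nucleotide excision and translesion lists held no gene at 0.5 or more in size. In nucleotide excision the highest was Gtf2h5 (76.5 TPM under the KO label and 62.9 TPM under the WT label). Uvssa was the lowest there (13.9 TPM under the KO label and 18.2 TPM under the WT label). In translesion synthesis Polk was highest (15.9 TPM under the KO label and 15.3 TPM under the WT label). Shprh was the lowest of that list (25.04 TPM under the KO label and 32.7 TPM under the WT label).

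**Figure D5:**
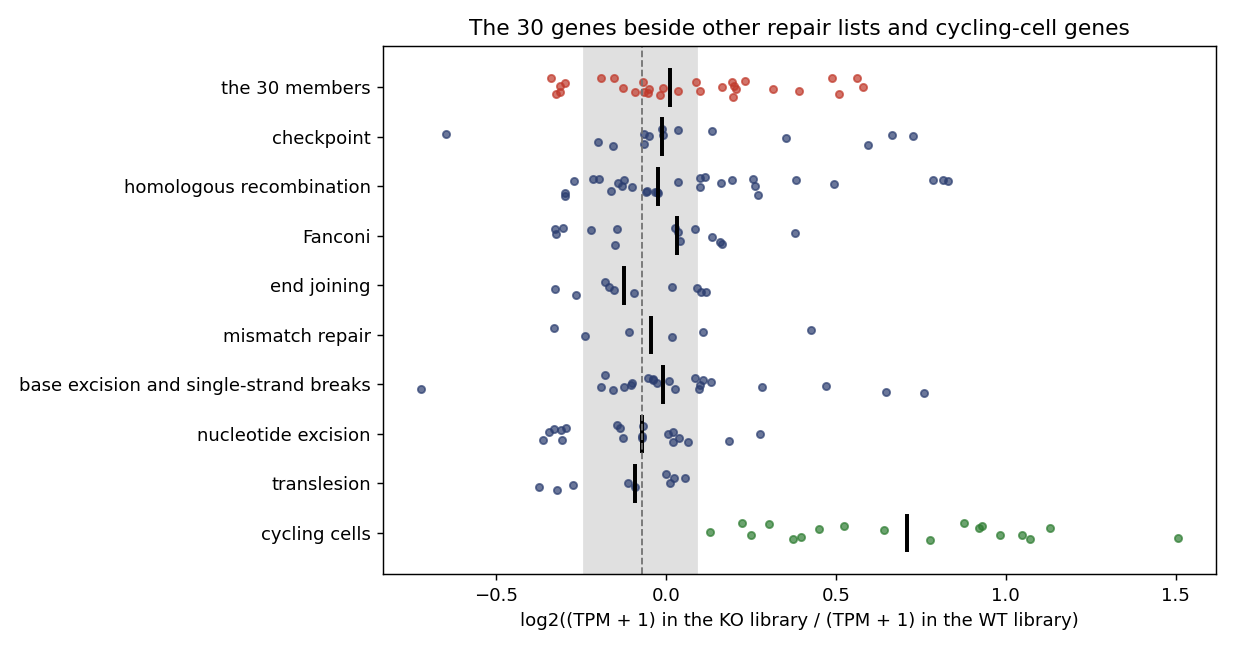
Log2 ratio (KO label over WT label, with a pseudocount of 1 TPM) of each gene with at least 1 TPM in a library, for the 30 genes, 8 further repair lists and the cycling-cell list; black bars are medians, the dashed line is the median of all 12029 genes and the grey band their middle 50%. The repair lists lie around the dashed line at -0.07, and all 18 cycling-cell genes lie right of zero with a median of 0.71.

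Promoter sequences are shown because many repair genes are known targets of E2F, the factor family that drives S-phase genes. RefSeq's GRCm38.p6 table, the build of the deposited mm10 coordinates, gave 26 windows for 24 of the 30 genes. Each ran from 250 bases before to 50 after a transcription start. For 20 of the 26 windows the last 30 bases lay near the start of a GENCODE transcript. The windows of Xrcc1 and Parp1 end before the start of the deposited transcript. Of these 24 genes, 7 held an exact match to TTTCCCGC, TTTGGCGC, TTTGCCGC or TTTCGCGC on either strand, against 4.999% of 9381 genes with at least 1 TPM and a window, and 2.26% of all 32851 windows. The matches are in capitals in the following stretches, written 5' to 3' on the strand of the gene, so that a match on the opposite strand appears as its reverse complement.
Chek2 chr5:110839811-110839858 (plus strand): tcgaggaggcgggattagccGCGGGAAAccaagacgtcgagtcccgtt
Brca2 chr5:150522433-150522480 (plus strand): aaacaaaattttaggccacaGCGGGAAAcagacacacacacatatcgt
Bard1 chr1:71103154-71103201 (minus strand): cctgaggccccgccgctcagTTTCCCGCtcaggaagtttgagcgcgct
Rad51c chr11:87404932-87404979 (minus strand): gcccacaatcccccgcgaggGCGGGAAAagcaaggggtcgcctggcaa
Rad51c chr11:87404468-87404515 (minus strand): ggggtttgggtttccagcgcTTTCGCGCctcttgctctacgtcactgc
Mdc1 chr17:35841462-35841509 (plus strand): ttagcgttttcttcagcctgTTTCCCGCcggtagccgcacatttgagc
Msh6 chr17:87975045-87975092 (plus strand): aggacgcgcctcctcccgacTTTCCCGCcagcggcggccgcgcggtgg
Topbp1 chr9:103305178-103305225 (plus strand): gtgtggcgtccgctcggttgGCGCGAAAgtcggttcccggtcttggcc
Exo1 and Fancd2, the genes with the highest ratios, are among the 6 genes without a window (with Nbn, Rad50, Rbbp8 and Rif1). For the 7 genes with these letters the log2 ratios ran from -0.32 (Mdc1) to 0.23 (Rad51c) with a median of 0.10, and 4 of 7 were above zero. The 17 genes with a window and no match ran from -0.34 to 0.51 with a median of -0.02, and 8 of 17 were above zero.

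Chek1, Rad54l and Rpa2 are among the 5 genes with the highest ratios, and their windows are shown whole with matches to CCAAT and to the GC box GGGCGG, on either strand, in capitals. None of them holds the E2F letters above or the letters TTTGAA or TTCGAA of the CHR element of late cell cycle promoters. Only exact letters were searched, so near matches and matches cut by the end of a window were not counted.
Chek1 chr9:36726609-36726908 (minus strand): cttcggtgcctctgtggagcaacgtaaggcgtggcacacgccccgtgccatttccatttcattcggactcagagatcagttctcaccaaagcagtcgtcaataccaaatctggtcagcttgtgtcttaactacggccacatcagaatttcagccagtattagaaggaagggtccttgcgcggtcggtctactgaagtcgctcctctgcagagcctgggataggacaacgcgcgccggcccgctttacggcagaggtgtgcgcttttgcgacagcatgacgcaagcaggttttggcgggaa
Rad54l chr4:116123640-116123939 (minus strand): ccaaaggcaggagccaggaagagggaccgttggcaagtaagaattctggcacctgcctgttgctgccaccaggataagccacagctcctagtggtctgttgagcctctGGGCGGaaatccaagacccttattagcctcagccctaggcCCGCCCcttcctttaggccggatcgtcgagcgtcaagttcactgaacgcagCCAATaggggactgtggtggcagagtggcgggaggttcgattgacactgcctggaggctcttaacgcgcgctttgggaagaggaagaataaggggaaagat
Rpa2 chr4:132768110-132768409 (plus strand): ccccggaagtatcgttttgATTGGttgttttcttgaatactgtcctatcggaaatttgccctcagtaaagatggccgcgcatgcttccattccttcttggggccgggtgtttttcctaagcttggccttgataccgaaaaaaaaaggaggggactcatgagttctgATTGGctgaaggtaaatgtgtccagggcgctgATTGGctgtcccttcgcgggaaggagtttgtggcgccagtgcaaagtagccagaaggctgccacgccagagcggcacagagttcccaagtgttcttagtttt
Chek1 has no match to any of these letters, Rad54l has 1 to CCAAT and 2 to the GC box, and Rpa2 has 3 to CCAAT, all on the opposite strand. Over the 24 genes, 13 held CCAAT (43.6% of the 9381 genes did), 17 held the GC box (68.0%) and 2 held the CHR letters (16.7%). A match is a description of letters in this window and not a shown binding site.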

How the data were processed

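RNA of sorted thymocytes was measured in 2 libraries, 1 per genotype label. HISAT2 (version not given in the sources used here) and mm10 (GRCm38) are named in the submitters' processing notes. Per the file headers, the authors quantified RefSeq transcripts with StringTie 1.3.3b. The deposited gene tables hold TPM, FPKM and coverage (a signal: mean depth per base, not scaled to library size). Per the file headers, the transcript tables hold other values as text attributes, namely TPM, FPKM and coverage of each transcript and the coverage of its exons. No source used here says whether counting used strand, so overlapping genes are uncertain.

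Values of a gene ID at several loci were summed. In thinly covered transcripts the covered bases clustered at multiples of 202 bases (2 mates of 101), within 2 bases for 26.1% of such transcripts in the library labelled KO and 25.5% in the library labelled WT, where even spacing gives 2.48%. Dividing covered bases by 202 thus estimated read pairs which gave 95% exact Poisson intervals for levels and Clopper-Pearson intervals for ratios. PCR copies are not independent molecules. The least covered of the 30 genes held 201 read pairs in the library labelled KO and 88.3 in the library labelled WT. Log2 ratios and the 2-fold threshold used a pseudocount of 1 TPM, while ratios given with an interval have none. They were computed on genes with at least 1 TPM in a library, and the log2 ratios understate changes of low genes. A 2-fold difference is a size threshold without a test. Exon depth, summed over the transcripts of a gene, was scaled to TPM by the library's coverage sum. Segments of a transcript (3 of equal length) were read where 1 transcript held at least 80% of its gene in both libraries and each segment had 20 read pairs, which left 22 of the 30 genes. Shared words were counted in GENCODE M21 transcripts. The 30 genes, the lists and the rules were chosen with earlier results of these data known. Genes named from other lists are the highest and lowest of each list with at least 5 TPM in a library, except that 1 is not reported here. The 2-fold threshold was also run on simulated read pairs with counting error only. These held no variation between mice and no gradient along the transcript, so they cannot show how often the threshold errs here. Scripts ran in Python 3.11.15 with pandas 2.3.3, numpy 2.4.6 and scipy 1.17.1, and figures were drawn with matplotlib 3.10.9.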

Additional observations from a re-analysis of the deposited data

How the results depend on the processing

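No paired analysis was possible because there is 1 library per genotype label. The count of 0 genes at 2-fold held with a pseudocount of 0.1 TPM, with FPKM, after rescaling by the median ratio, without terminal exons, with a filter of 5 TPM and with no filter. It was 1 in the 3' segment, a setting added after seeing the data, where Rpa1 stood at 2.80. The median of the 30 genes was 0.01 and ran from -0.04 without terminal exons to 0.10 with FPKM over the planned settings; it was -0.23, -0.02 and 0.09 in the 5', middle and 3' segments of 22 genes, and -0.0091 without Rpa1. Rescaling and FPKM put the median of all genes at -0.00035 and 0.02, against -0.07, and turned the sign of 6 and 7 genes with ratios near zero (Rbbp8, Rad17, Xrcc1, Mre11a, Rad50 and Msh6 in both, and Topbp1 with FPKM). Without terminal exons 3 genes changed sign, Rpa1 to -0.32, Bard1 to -0.03 and Rbbp8 to 0.0026. In the segments the sign changed for 3 genes (5'), 5 (middle) and 6 (3'). The count of genes with a transcript share past the threshold was 1 at 15, 25 and 35 percentage points. The medians of the 8 other repair lists were read in 32 values, from 4 settings each (pseudocount, FPKM, rescaling and the filter of 5 TPM). They stayed between -0.13 and 0.11. Each moved by less than the counting error typical of a single gene of its list, which is a lenient measure for a median. FPKM and rescaling turned the medians of the checkpoint, recombination, mismatch, base excision and nucleotide excision lists from below to above zero. With FPKM that of the translesion list turned as well. Depth limits the low genes most: the interval of Exo1 spans 1.37 to 2.29.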
